A study of Mus musculus with 9 samples.

Results

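The Polycomb repressive complexes are described here through 10 of their genes, taken by name from the 55401 genes of each deposited table: *Ezh1*, *Ezh2*, *Eed*, *Suz12*, *Rbbp7* and *Jarid2* of PRC2 and *Bmi1*, *Ring1*, *Rnf2* and *Cbx7* of PRC1. All 10 were found and all 10 passed the filter on low values in each comparison. RNA-Seq was performed on color-coded clones of a murine acute myeloid leukemia that depends on overexpressed *Hoxa9* and *Meis1*. All of these cells carry a lentiviral color-coding vector, driven by a compound promoter with a Cbx3 element and the spleen focus forming virus promoter, which supplies a truncated EGFR and the fluorescent code. The clones were pooled, transplanted with helper bone marrow into lethally irradiated C57Bl6/J recipients, and re-isolated from thawed spleens as CD45.1+ cells with bright EGFRt, cKit and little or no CD11b. The 3 pre-malignant libraries hold clone 38BC-D, clone 43BC-D and clone 33BC-D, all of mouse #15, which was sacrificed before overt disease. The 3 de novo expanded libraries hold the same clones from leukemic endpoint mice, namely 38BC-D from mouse #13, 43BC-D from mouse #14 and 33BC-D from mouse #17, and the 3 stably expanded libraries hold clone 34BC-D from the same 3 endpoint mice. The pre-malignant group is therefore 1 mouse and the stably expanded group 1 clone, so that disease stage and mouse, and stable expansion and clone, cannot be told apart. Libraries are numbered within their group, because the table columns could be assigned to a group and not to a clone or mouse.

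Polycomb proteins keep genes silent during development and in stem cells. PRC2 methylates a lysine of histone H3 through EZH2 or its paralog EZH1, with EED and SUZ12 as obligate partners, RBBP4 or RBBP7 as histone-binding subunits and JARID2 as an accessory subunit that helps to recruit the complex. PRC1 is a ubiquitin ligase for a core histone, built from RING1 or RNF2 and a PCGF protein such as BMI1, and its canonical form adds a CBX reader of the PRC2 mark such as CBX7. BMI1 is known for its part in self-renewal of blood stem cells and leukemic cells, where it holds the *Cdkn2a* locus silent, and EZH2 is the form of the enzyme that dividing cells mostly use.

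The libraries held 10379739 to 15551196 reads on genes. The sort and design genes were expressed in every library, with *Kit* (the sorted receptor cKit) at 142 to 287 reads per 1000000 reads on genes (CPM) and *Itgam* (CD11b) at 27.8 to 85.7 CPM. *Itgam* itself differed, by a log2 fold change of 0.61 of stably expanded over pre-malignant libraries (limma's adjusted p = 0.0485). De novo expanded library 3 stood apart from its group. Of the 384 genes that differed between stably expanded and pre-malignant libraries, in a fit that did not use de novo expanded libraries, 325 (84.6%) lay nearer to the stably expanded mean in library 3, against 121 (31.5%) in library 1 and 118 (30.7%) in library 2. Results that rest on this library are given with and without it. Because it was singled out for its likeness to the stably expanded libraries, leaving it out favours a difference between the leukemic groups, and values without it are a description of the remaining libraries. In de novo expanded over pre-malignant libraries, 0% of all genes had limma's adjusted p under 0.05 with it and 4.35% without it. The summed CPM of 8 late granulocyte markers was 225 to 261 in pre-malignant, 200.1 to 632 in de novo expanded and 596 to 4550 in stably expanded libraries, and that of 7 B cell markers was 216 to 258, 75.0 to 207 and 85.9 to 103. Most of the B cell sum was *Ighm*, with means of 215, 135 and 76.7 CPM in the same order of groups. *Cd79b* went the other way in stably expanded libraries, with means of 7.21, 6.74 and 14.1 CPM. The other B cell markers had lower means in stably expanded than in pre-malignant libraries. The 7 erythroid markers summed to 18.6 to 35.0 CPM in pre-malignant, 2.29 to 14.8 in de novo expanded and 2.31 to 24.0 in stably expanded libraries, without overlap between the first 2 groups. Under 1 CPM in every library were 5 of 6 T cell, 2 of 3 NK cell and 3 of 4 platelet markers. Macrophage markers summed to 88.2 to 185 CPM in pre-malignant, 54.6 to 243 in de novo expanded and 171 to 229.7 in stably expanded libraries, while the complement genes *C1qa*, *C1qb* and *C1qc* stayed under 1 CPM throughout. The part of these markers in the results below was not tested. In such bulk samples, fewer cells of a type and less RNA per cell cannot be told apart.

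In brief, none of the 10 genes changed 2-fold in any comparison. *Rbbp7* and *Bmi1* were higher in all 6 leukemic libraries than in any pre-malignant library, and *Suz12* was so on the scale of the normalized counts. Of all genes, 10.6% in de novo and 16.1% in stably expanded libraries were higher than pre-malignant libraries without overlap. The share of all genes that were so in both groups was not counted. Between stably expanded and pre-malignant libraries the rises of *Suz12* and *Rbbp7* passed the adjusted test, as did 7.95% of all genes. *Ezh1*, *Ezh2*, *Eed*, *Ring1*, *Rnf2* and *Cbx7* did not pass the adjusted test in any comparison, and *Jarid2* was divided within the de novo expanded group.

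**Figure D1:**
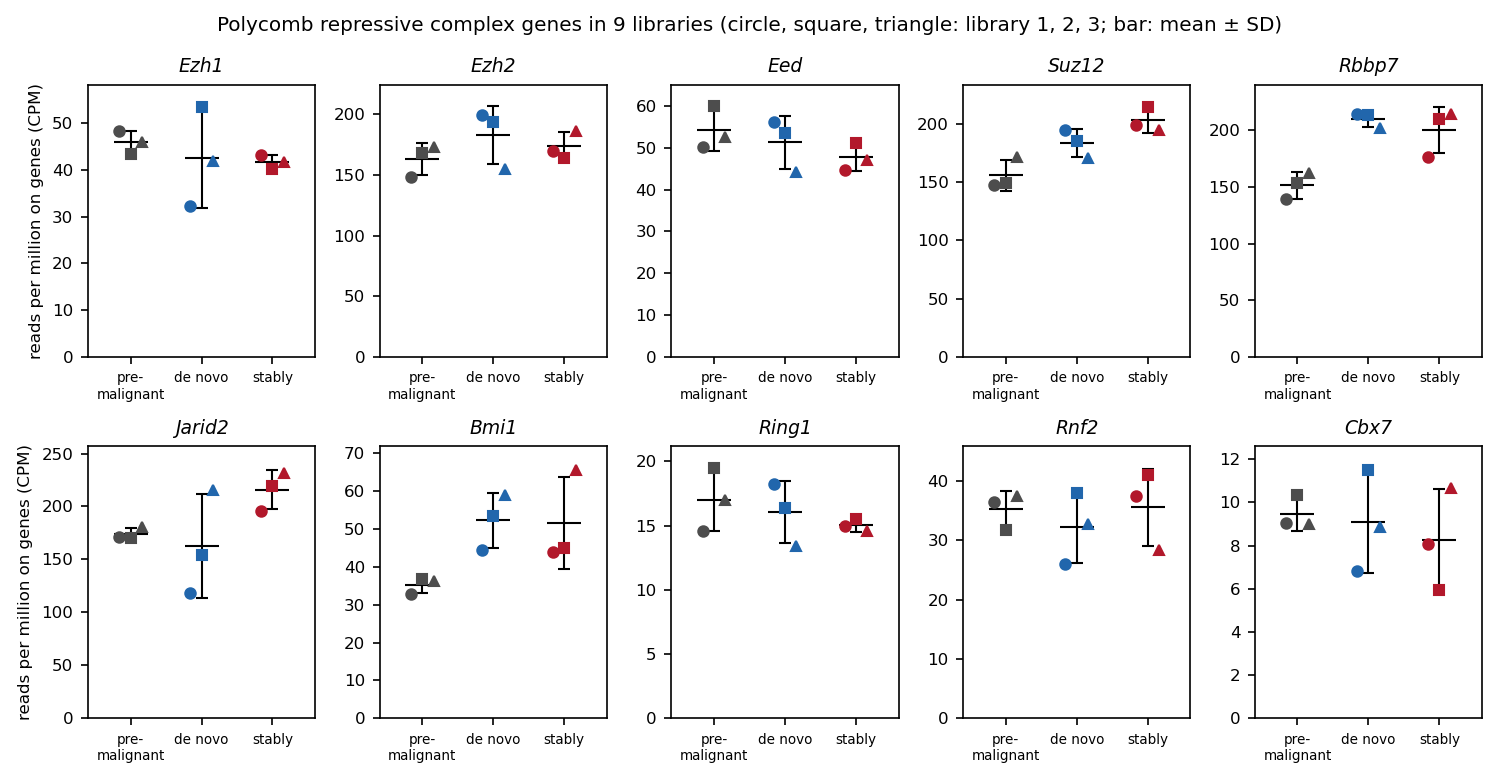
CPM of the 10 Polycomb genes in the 9 libraries, one panel per gene with its own vertical axis from 0, by group on the horizontal axis; circles, squares and triangles are libraries 1, 2 and 3 and bars are mean ± SD (n = 3). *Rbbp7* and *Bmi1* lie higher in every leukemic library than in every pre-malignant library, and *Jarid2* spans 118 to 216 CPM in the de novo expanded group.

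Per kilobase of gene model, *Rbbp7* had the highest level at 64.4 ± 10.3 CPM per kb (SD, n = 9), followed by *Suz12* at 36.6, *Ezh2* at 25.9, *Jarid2* at 19.0, *Eed* at 13.4, *Bmi1* at 11.7, *Rnf2* at 8.32, *Ezh1* at 5.84, *Ring1* at 4.95 and *Cbx7* at 1.38 CPM per kb. Only the first and the last place in this order were apart in range from their neighbours over the 9 libraries. *Suz12* was above *Ezh2* and *Ezh2* above *Jarid2* within each of the 9 libraries, although their ranges over all libraries overlapped. *Eed* exceeded *Bmi1* in 7 of 9 libraries, and *Ezh1* exceeded *Ring1* in 7 of 9. The shallowest measurement was that of *Cbx7*, with 82 to 179 reads per library, and the deepest that of *Rbbp7*, with 1832 to 3325 reads.

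The catalytic subunits were measured first. *Ezh2* was at 148, 168 and 173 CPM in pre-malignant libraries 1 to 3, at 200, 194 and 155 CPM in the de novo expanded group and at 170, 164 and 187 CPM in the stably expanded group. The 3 groups overlapped, and de novo expanded library 3 was low within its group. Its log2 fold change was 0.18 (95% interval -0.10 to 0.46) in de novo expanded and 0.10 (-0.12 to 0.31) in stably expanded over pre-malignant libraries, with limma's adjusted p = 0.599 and 0.587. These intervals leave out a 2-fold change in either direction. Without de novo expanded library 3 the first value was 0.28, with limma's adjusted p = 0.143.

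*Ezh1*, the paralog that resting cells use more, was at 48.3, 43.5 and 46.1 CPM in pre-malignant, 32.3, 53.4 and 41.9 CPM in de novo expanded and 43.3, 40.2 and 41.7 CPM in stably expanded libraries. The lowest and the highest of the 9 values were both in the de novo expanded group. The log2 fold change was -0.12 (-0.56 to 0.31) and -0.13 (-0.39 to 0.12) over pre-malignant libraries in the 2 leukemic groups, with limma's adjusted p = 0.843 and 0.498.

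The balance of both enzymes was then compared within each library, where scaling between libraries plays no part. *Ezh2* reads outnumbered *Ezh1* reads 3.07, 3.86 and 3.77 times in pre-malignant libraries, 6.19, 3.62 and 3.70 times in de novo expanded and 3.93, 4.08 and 4.48 times in stably expanded libraries. All 3 stably expanded ratios lay above all pre-malignant ratios, and de novo expanded library 1 alone exceeded 5. The mean log2 ratio was 1.83 ± 0.18 for pre-malignant, 2.13 ± 0.44 for de novo and 2.06 ± 0.096 for stably expanded libraries (SD, n = 3). The difference to pre-malignant libraries was 0.23 for stably expanded libraries (two-sided exact permutation p = 0.1, the smallest that 3 against 3 libraries allow, so that the test could not reach 0.05) and 0.30 for de novo expanded libraries (exact permutation p = 0.6). Leaving out single libraries, the first value was lowest without pre-malignant library 1, at 0.13, and the second fell to 0.0471 without de novo expanded library 1 and 0.20 without pre-malignant library 1. Stably and de novo expanded libraries differed by -0.07 (exact permutation p = 1), a direction that turned to 0.18 without de novo expanded library 1. Per length, *Ezh2* made up 77.4% to 87.3% of both enzymes' transcripts across the 9 libraries.

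*Suz12* was at 147, 149 and 171 CPM in pre-malignant, 195, 185 and 171 CPM in de novo expanded and 199, 215 and 195 CPM in stably expanded libraries. Every stably expanded library was above every pre-malignant library. De novo expanded library 3 and pre-malignant library 3 were level on the CPM scale, and on the scale of the normalized counts all de novo expanded libraries were higher. The log2 fold change over pre-malignant libraries was 0.39 ± 0.093 (SE) in stably expanded libraries, with limma's adjusted p = 0.0311, and 0.25 ± 0.10 in de novo expanded libraries, with limma's adjusted p = 0.424. The stably and de novo expanded libraries differed by 0.15 (-0.06 to 0.37), with limma's adjusted p = 0.891, so that the size of the rise was not shown to differ between them.

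*Rbbp7*, the histone chaperone subunit that PRC2 shares with other chromatin complexes, was at 139, 153 and 162 CPM in pre-malignant, 215, 214 and 202 CPM in de novo expanded and 177, 210 and 214 CPM in stably expanded libraries. The leukemic libraries did not overlap with the pre-malignant libraries. In stably expanded libraries the log2 fold change was 0.41 ± 0.10 (SE), with limma's adjusted p = 0.0375. It was 0.49 ± 0.092 in de novo expanded libraries, where limma's adjusted p was 0.330 over all genes and 0.0214 without de novo expanded library 3 (log2 fold change 0.51, with 4.35% of all genes passing). The 2 leukemic groups differed by -0.07 (-0.31 to 0.17). Its paralog *Rbbp4* rose with it, from 229, 261 and 267 CPM in pre-malignant to 324, 333 and 344 CPM in stably expanded libraries, with 305, 311 and 314 CPM in de novo expanded libraries (stably expanded over pre-malignant log2 fold change 0.41, limma's adjusted p = 0.0224), and *Rbbp7* kept 62.1% to 67.9% of the pair's level per length in every library.

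The adjusted p of *Suz12* and *Rbbp7* in stably expanded over pre-malignant libraries depended on single libraries and on the fit. Over 9 other settings without a library left out, 8 kept the adjusted p of *Suz12* under 0.05 and 7 that of *Rbbp7*, edgeR (0.0357 and 0.0416) and DESeq2 (0.0241 and 0.0273) among them. Both genes lost it in the 1 fit of all 9 libraries, and *Rbbp7* also with quantile normalization. Leaving out single libraries, *Suz12* kept an adjusted p under 0.05 without pre-malignant library 3 or stably expanded library 3 and lost it without pre-malignant libraries 1 or 2 or stably expanded libraries 1 or 2. *Rbbp7* kept it without stably expanded library 1 and lost it without any of the other 5 libraries. The adjusted p reached at most 0.125 and 0.128 over all 15 alternatives, and the log2 fold change stayed between 0.33 and 0.46 for *Suz12* and between 0.34 and 0.49 for *Rbbp7*.

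*Eed*, which reads the methyl mark and stimulates the enzyme, was at 50.2, 60.1 and 52.7 CPM in pre-malignant, 56.2, 53.5 and 44.1 CPM in de novo expanded and 44.7, 51.3 and 47.2 CPM in stably expanded libraries. The groups overlapped on the CPM scale, while on the scale of the normalized counts every stably expanded library was below every pre-malignant one. The log2 fold change was -0.18 (-0.43 to 0.07) in stably and -0.07 (-0.38 to 0.24) in de novo expanded over pre-malignant libraries, with limma's adjusted p = 0.351 and 0.872.

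*Jarid2* was at 172, 171 and 180 CPM in pre-malignant, 118, 154 and 216 CPM in de novo expanded and 196, 220 and 232 CPM in stably expanded libraries. De novo expanded libraries 1 and 2 were below, and library 3 above, all pre-malignant libraries. The log2 fold change of stably expanded over pre-malignant libraries was 0.31 (0.11 to 0.52) without overlap, and limma's adjusted p of 0.0652 missed the threshold. Stably over de novo expanded libraries gave 0.45 (-0.05 to 0.95), with limma's adjusted p = 0.891, and 0.69 once de novo expanded library 3 was left out. De novo expanded over pre-malignant libraries gave -0.12 with all libraries, 0.09 without de novo expanded library 1 and -0.36 without library 3 (limma's adjusted p = 0.857 with all libraries and 0.115 without library 3).

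*Bmi1*, a PCGF subunit of canonical PRC1, was at 32.9, 36.8 and 36.3 CPM in pre-malignant, 44.6, 53.4 and 58.9 CPM in de novo expanded and 44.0, 45.0 and 65.6 CPM in stably expanded libraries. All leukemic values exceeded all pre-malignant values, and stably expanded library 3 was the highest of the 9. With log2 fold changes of 0.58 (0.24 to 0.91) in de novo and 0.53 (0.17 to 0.89) in stably expanded libraries it had the highest point estimate of the 10 genes over pre-malignant libraries, and neither passed the test (limma's adjusted p = 0.360 and 0.0734). Without stably expanded library 3 the value of that group was 0.33. Both leukemic groups are compared with the same pre-malignant libraries, so that the 2 values are not independent.

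The ligase subunits RNF2 and RING1 and the reader CBX7 followed. *Rnf2* was at 36.5, 31.7 and 37.5 CPM in pre-malignant, 26.0, 38.0 and 32.7 CPM in de novo expanded and 37.5, 41.0 and 28.3 CPM in stably expanded libraries. *Ring1* was at 14.6, 19.5 and 17.0 CPM, 18.3, 16.4 and 13.5 CPM, and 15.0, 15.6 and 14.5 CPM in the same order of groups. *Cbx7* was at 9.03, 10.3 and 8.98 CPM, 6.84, 11.5 and 8.88 CPM, and 8.09, 5.96 and 10.7 CPM. For all 3 genes every group overlapped with every other. Their log2 fold changes over pre-malignant libraries ran from -0.23 (*Cbx7*, stably expanded) to 0.01 (*Rnf2*, stably expanded), and none passed limma's adjusted test. The widest interval was that of *Cbx7* in stably over de novo expanded libraries, at -0.86 to 0.58.

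Read as a group, 0 of 10 genes were called in de novo expanded over pre-malignant libraries at 2-fold and a limma adjusted p under 0.05, beside 0% of all 14195 genes tested, and 0 passed the adjusted p alone, beside 0% of all genes. At an unadjusted p under 0.05, limma gave 3 of the 10 genes, all higher, beside 11.3% of all genes. The normalized counts of the groups did not overlap for 3 genes that were higher (10.6% of all genes) and for 0 that were lower (8.50%). Without de novo expanded library 3, 1 gene passed the adjusted p, which was *Rbbp7*, beside 4.35% of all genes. The median log2 fold change of the 10 genes was -0.07, beside 0.01 over all genes.

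In stably expanded over pre-malignant libraries 0 of 10 genes were called at 2-fold, beside 2.75% of 13968 genes, and 2 passed the adjusted p alone, beside 7.95%. Limma gave 4 of 10 genes at an unadjusted p under 0.05, beside 25.4% of all genes. Groups did not overlap for 4 genes that were higher (16.1% of all genes) and 1 that was lower (14.6%). The median was 0.05, beside 0.00 over all genes. In stably over de novo expanded libraries 0 of 10 genes were called at 2-fold or passed the adjusted p, beside 0.00727% of 13758 genes for either rule, and 0 had an unadjusted p under 0.05, beside 4.83%. *Suz12* was higher without overlap (4.66% of all genes) and 0 genes were lower without overlap (4.95%). Without de novo expanded library 3 the adjusted p of *Jarid2* was under 0.05, as was that of 6.69% of all genes. With edgeR or DESeq2 as the test, 0 of the 10 genes were called at 2-fold in any comparison.

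**Figure D2:**
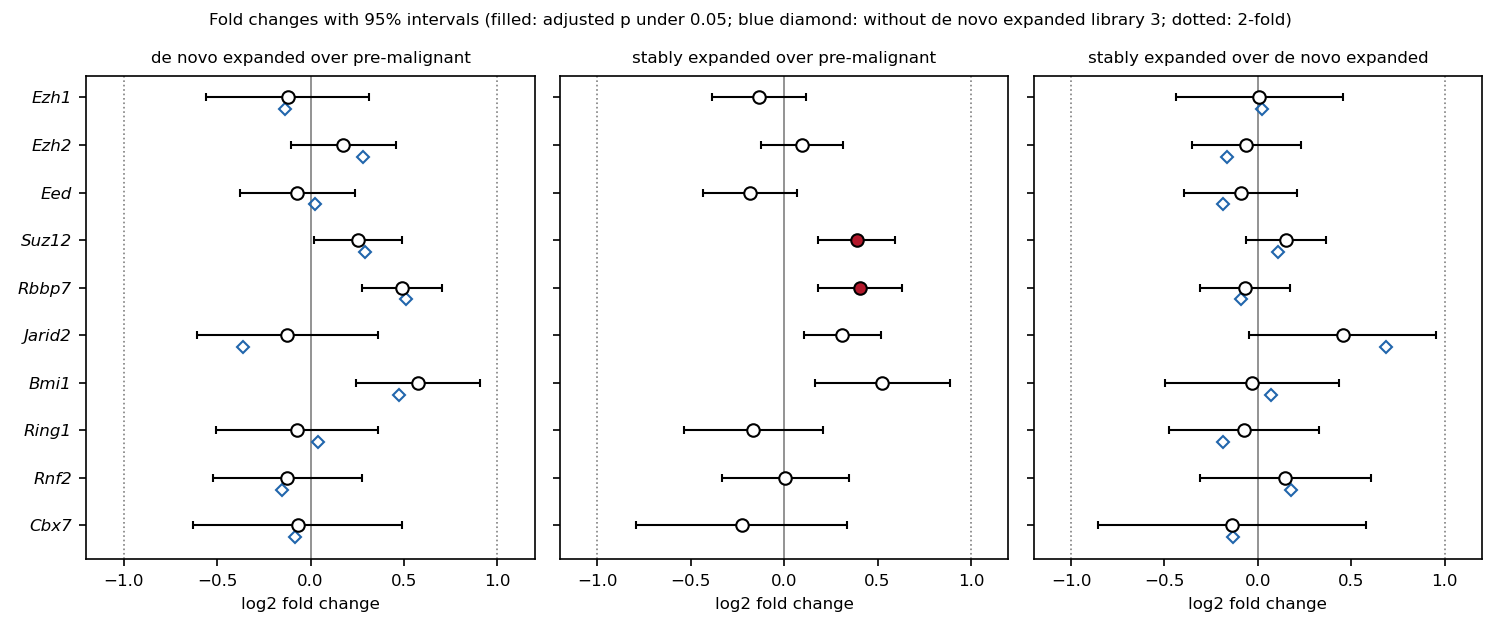
Log2 fold changes of the 10 Polycomb genes in the 3 comparisons (horizontal axis) with 95% intervals; filled points have limma's adjusted p under 0.05, blue diamonds leave out de novo expanded library 3 and dotted lines mark 2-fold. All points lie inside 2-fold, the filled points are *Suz12* and *Rbbp7* in stably expanded over pre-malignant libraries, and the diamond of *Jarid2* is farthest from its point.

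The promoters of 4 of these genes are shown: those of *Suz12*, *Rbbp7* and *Bmi1*, whose normalized counts in both leukemic groups did not overlap with the pre-malignant ones, and that of *Ezh2*, the PRC2 enzyme, whose groups overlapped. Each run covers 250 bases before to 14 bases after the RefSeq transcription start in GRCm38.p6, read in the direction of the gene. The positions are chr11:79992856-79993119 on the plus strand, chrX:162760122-162760385 on the plus strand, chr2:18676768-18677031 on the plus strand and chr6:47595017-47595280 on the minus strand. Capitals mark E2F motifs (TTTCCCGC, TTTGGCGC, TTTCGCGC or TTTGCCGC on either strand) and CCAAT boxes (CCAAT on either strand), which do not share letters.
Suz12: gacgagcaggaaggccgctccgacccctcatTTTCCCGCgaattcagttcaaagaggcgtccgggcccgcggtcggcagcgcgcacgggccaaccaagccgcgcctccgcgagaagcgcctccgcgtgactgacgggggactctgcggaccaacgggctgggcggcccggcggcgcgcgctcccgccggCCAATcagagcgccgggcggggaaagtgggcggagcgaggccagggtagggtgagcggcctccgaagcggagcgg
Rbbp7: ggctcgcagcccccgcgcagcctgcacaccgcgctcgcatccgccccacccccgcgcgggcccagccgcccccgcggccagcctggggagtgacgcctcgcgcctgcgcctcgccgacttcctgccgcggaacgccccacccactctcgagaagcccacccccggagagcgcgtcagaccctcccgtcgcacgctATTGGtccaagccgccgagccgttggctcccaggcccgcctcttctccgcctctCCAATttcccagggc
Bmi1: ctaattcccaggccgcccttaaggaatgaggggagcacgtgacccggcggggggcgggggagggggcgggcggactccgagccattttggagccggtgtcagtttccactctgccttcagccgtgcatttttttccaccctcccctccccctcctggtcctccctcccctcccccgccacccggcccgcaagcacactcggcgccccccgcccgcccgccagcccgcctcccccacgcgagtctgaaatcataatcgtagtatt
Ezh2: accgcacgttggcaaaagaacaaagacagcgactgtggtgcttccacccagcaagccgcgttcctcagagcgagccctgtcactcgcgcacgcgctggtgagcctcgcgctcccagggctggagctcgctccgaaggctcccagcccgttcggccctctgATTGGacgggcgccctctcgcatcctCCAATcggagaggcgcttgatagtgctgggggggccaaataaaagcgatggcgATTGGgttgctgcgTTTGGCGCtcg

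In the full RefSeq windows of 300 bases, all 10 genes were matched, with 11 windows. An E2F motif was found for 2 genes, *Suz12* (first base 219 bases before the start) and *Ezh2* (4 bases after it), beside 2.26% of all 32851 windows. A CCAAT box was found for 6 genes, *Ezh2*, *Suz12*, *Rbbp7*, *Eed*, *Jarid2* and *Cbx7*, beside 37.4% of all windows, and *Ezh2* held 3 of them. The letters of neither motif are in the windows of *Ezh1*, *Bmi1*, *Ring1* and *Rnf2*.

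The other subunits of the complexes were read from lists of PRC2 core, PRC2 accessory, PRC1 core, canonical and variant PRC1 genes and of enzymes that oppose the Polycomb marks. Of 51 genes on these lists beside the 10, 50 were in the tables and 48 were tested. In stably expanded over pre-malignant libraries 5 were higher and 2 lower at limma's adjusted p under 0.05 (7.95% of all genes passed in either direction) and 1 of them was called at 2-fold (2.75% of all genes), with a median log2 fold change of 0.06 beside 0.00 over all genes. In de novo expanded over pre-malignant libraries 0 passed, beside 0% of all genes, with a median of 0.00 beside 0.01. At limma's unadjusted p under 0.05, 4 were higher and 3 lower there, beside 11.3% of all genes in either direction. In stably over de novo expanded libraries 0 passed, beside 0.00727% of all genes, with a median of 0.03 beside 0.00. There 0 had an unadjusted p under 0.05, beside 4.83% of all genes. Among all 6 PRC2 core genes, *Suz12*, *Rbbp7* and *Rbbp4* were higher and 0 lower at that adjusted p in stably expanded over pre-malignant libraries (7.95% of all genes passed). Of 7 PRC2 accessory genes tested, *Jarid2* included, 0 passed limma's adjusted test in that comparison. Of these 7 genes, 2 had an unadjusted p under 0.05, beside 25.4% of all genes.

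Of 17 genes tested of variant PRC1, the form that works without a CBX subunit, 4 were higher and 1 lower at limma's adjusted p under 0.05 in stably expanded over pre-malignant libraries, beside 7.95% of all genes. *Skp1a*, a ubiquitin ligase adaptor in the KDM2B-containing form, was at 85.4, 88.9 and 97.8 CPM in pre-malignant, 116, 111 and 142 CPM in de novo expanded and 134, 126 and 139 CPM in stably expanded libraries (stably expanded over pre-malignant log2 fold change 0.56, limma's adjusted p = 0.0103). *Yaf2*, which takes the place of the CBX subunit, was at 21.3, 25.1 and 25.3 CPM, 26.9, 24.3 and 38.2 CPM, and 38.0, 37.1 and 38.2 CPM (0.66, limma's adjusted p = 0.0146). De novo expanded library 3 had the *Yaf2* level of the stably expanded libraries, and the other de novo expanded libraries that of the pre-malignant ones. *Csnk2b*, the regulatory subunit of casein kinase 2, was at 63.4, 54.0 and 71.3 CPM in pre-malignant, 88.4, 84.4 and 92.6 CPM in de novo expanded and 109, 93.6 and 83.4 CPM in stably expanded libraries (0.60, limma's adjusted p = 0.0248).

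*Auts2*, a subunit of a PRC1 form associated with activation, was the single gene called at 2-fold. It was barely expressed, at 0.455, 0.342 and 0.270 CPM in pre-malignant, 3.17, 1.54 and 0.980 CPM in de novo expanded and 1.50, 3.84 and 1.35 CPM in stably expanded libraries, and its log2 fold change was 2.29 ± 0.57 (SE) in stably expanded (limma's adjusted p = 0.0349) and 2.08 ± 0.55 in de novo expanded libraries (limma's adjusted p = 0.370). *Fbrs*, of the same form of PRC1, fell. It was at 201, 196 and 199 CPM in pre-malignant, 134, 136 and 137 CPM in de novo expanded and 147, 142 and 159 CPM in stably expanded libraries, a log2 fold change of -0.53 in de novo expanded (limma's adjusted p = 0.279, and 0.0117 without de novo expanded library 3, where 4.35% of all genes passed) and -0.41 in stably expanded libraries (limma's adjusted p = 0.0245). The 3 libraries of each group lay close together, and the leukemic groups were below every pre-malignant library. Of all genes, 8.50% in de novo and 14.6% in stably expanded libraries were lower without overlap.

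*Pcgf3*, a PCGF subunit of variant PRC1, was at 54.6, 50.3 and 46.4 CPM in pre-malignant, 45.0, 43.9 and 29.7 CPM in de novo expanded and 33.1, 34.9 and 35.9 CPM in stably expanded libraries (stably expanded over pre-malignant log2 fold change -0.53, limma's adjusted p = 0.0248). Its paralog *Pcgf5* was higher without overlap in the same comparison (log2 fold change 0.44, limma's adjusted p = 0.0717), as were 16.1% of all genes. Of 9 canonical PRC1 genes and 11 opposing enzymes tested, among them the demethylases *Kdm6a* and *Kdm6b* and the deubiquitinase *Bap1*, 0 passed limma's adjusted test in any comparison. At an unadjusted p under 0.05, 1 canonical gene was lower in each comparison with pre-malignant libraries, as were 1 opposing enzyme in de novo and 2 in stably expanded libraries. Of all genes, 11.3% in de novo and 25.4% in stably expanded libraries had such a p in either direction.

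**Figure D3:**
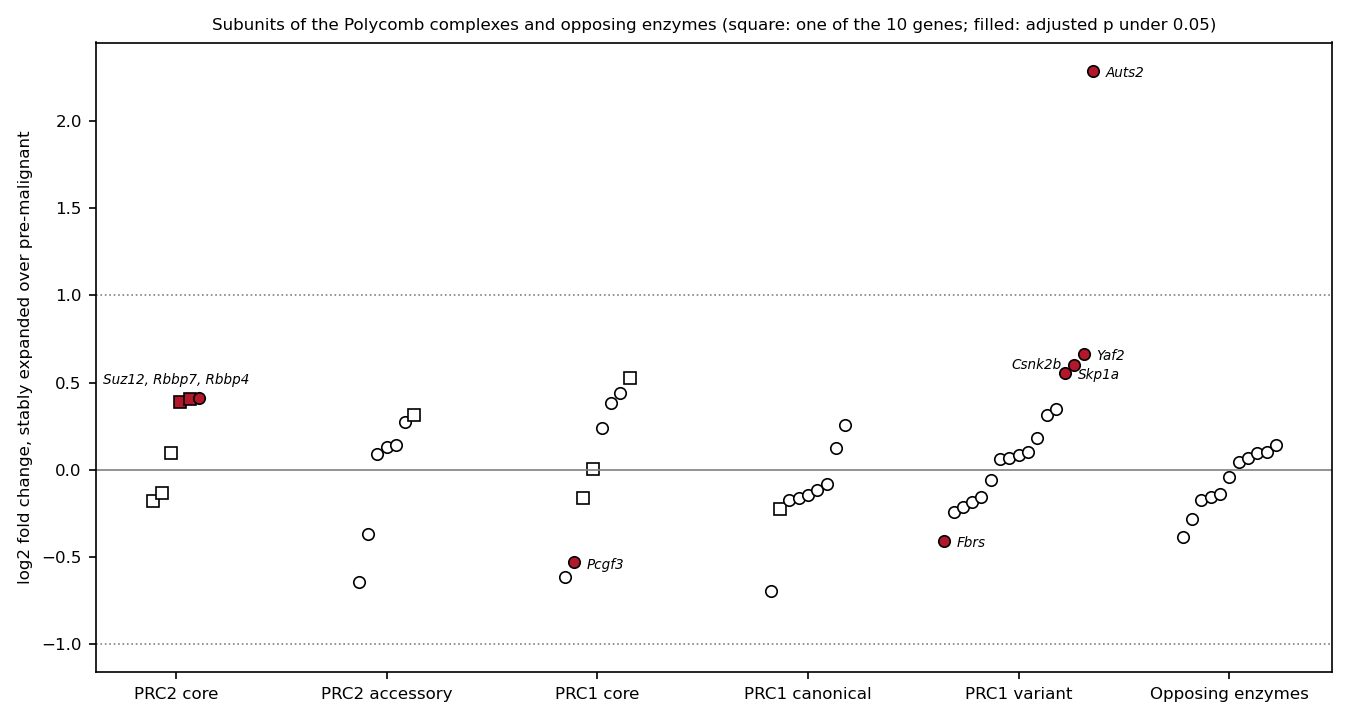
Log2 fold change of stably expanded over pre-malignant libraries (vertical axis) for each tested gene of 6 lists (horizontal axis, genes in ascending order within a list); squares are among the 10 genes, filled symbols have limma's adjusted p under 0.05 and dotted lines mark 2-fold. *Auts2* at 2.29 is the only symbol beyond 2-fold, and the lists of canonical PRC1 and opposing enzymes hold no filled symbol.

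The alternative subunits within a family were compared per length, as shares of the family in each library, which is a description without a test. *Bmi1* was the leading PCGF gene in all 9 libraries. Its share was 33.5%, 37.5% and 36.1% in pre-malignant, 45.1%, 48.2% and 45.8% in de novo expanded and 38.5%, 42.6% and 48.9% in stably expanded libraries, higher in every leukemic than in every pre-malignant library. The share of *Pcgf3* went the other way, from 21.3% ± 2.0 (SD, n = 3) to 15.0% ± 4.8 in de novo and 12.3% ± 1.3 in stably expanded libraries. *Rnf2* carried 52.8% to 67.4% of the ligase pair, and *Phc2* 42.8% to 55.5% of the PHC genes, the polyhomeotic subunits of canonical PRC1. How reads shared between paralogs were counted is not given in the sources used here.

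**Figure D4:**
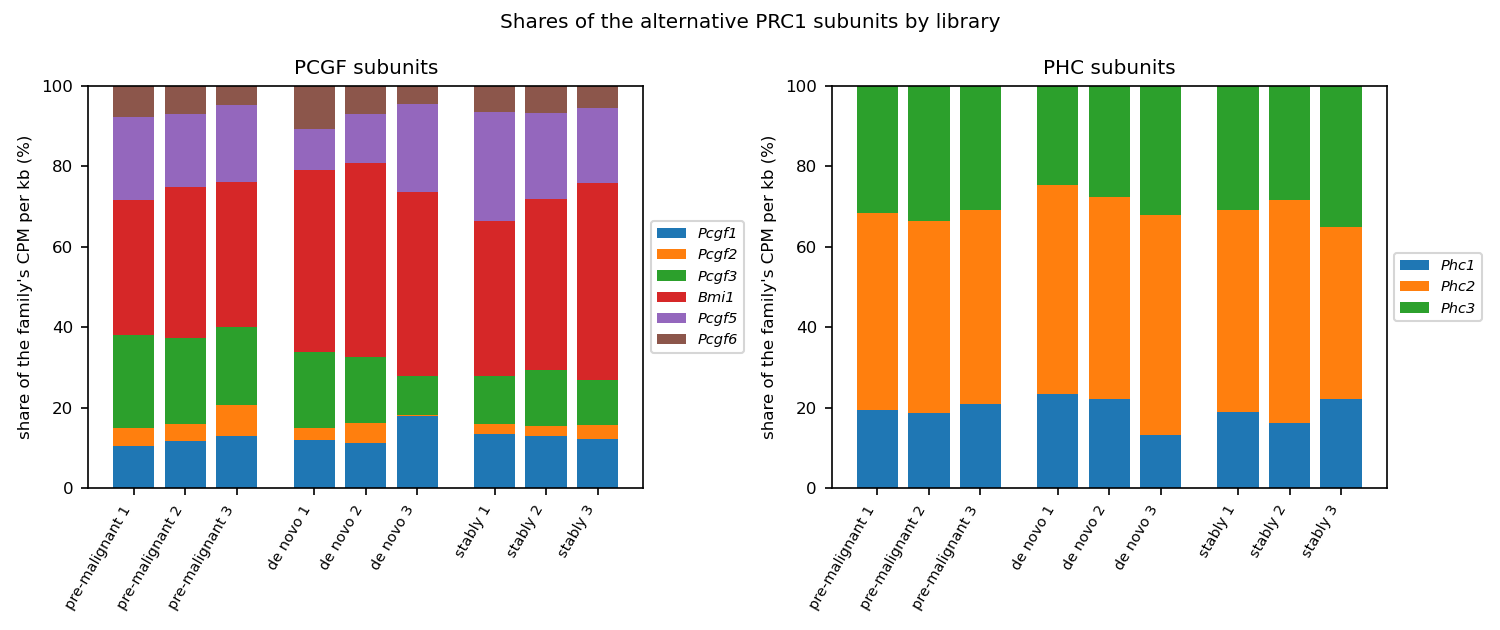
Share of each gene in the summed CPM per kb of the PCGF genes (left) and of the PHC genes (right), in percent, stacked to 100 for each of the 9 libraries. The *Bmi1* band is wider in all leukemic than in all pre-malignant libraries, and *Phc2* holds 42.8% to 55.5% of each PHC bar.

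Further PRC1 genes whose values differed between de novo expanded library 3 and libraries 1 and 2 were named after their values were seen. They are a selection, and other PRC1 genes split with library 3 outside the stably expanded range. In de novo expanded libraries 1, 2 and 3, *Pcgf1* was at 4.92, 5.14 and 9.67 CPM, beside 5.69 to 6.84 in stably expanded libraries. *Pcgf2* was at 2.67, 4.95 and 0.196 CPM, beside 2.41 to 4.24, and *Phc1* at 23.0, 22.6 and 11.8 CPM, beside 16.9 to 21.0. How many PRC1 genes went each way was not counted. *Pcgf5*, a variant PRC1 subunit, was at 64.6, 56.6 and 61.1 CPM in pre-malignant, 32.4, 42.6 and 89.2 CPM in de novo expanded and 97.9, 71.3 and 79.1 CPM in stably expanded libraries. The first 2 de novo expanded libraries were the lowest of the 9, and the third was in the range of the stably expanded libraries. Its log2 fold change of stably over de novo expanded libraries was 0.73 with all libraries (limma's adjusted p = 0.891) and 1.16 without library 3, and over pre-malignant libraries the de novo expanded value went from -0.27 (adjusted p = 0.804) to -0.70.

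In the same comparison of stably over de novo expanded libraries, the log2 fold change was 0.37 for *Yaf2*, 0.44 for *Bcorl1*, a variant PRC1 scaffold, and -0.74 for *Cbx2* with every library in the fit (limma's adjusted p = 0.891 for all 3), and 0.58, 0.76 and -1.21 without library 3. *Bcorl1* was at 49.7, 58.9 and 63.8 CPM in pre-malignant, 41.1, 45.7 and 83.1 CPM in de novo expanded and 88.4, 59.3 and 73.3 CPM in stably expanded libraries, and *Cbx2* at 5.99, 10.4 and 8.85 CPM, 11.5, 12.1 and 4.31 CPM, and 4.31, 5.96 and 4.91 CPM. For both genes de novo expanded library 3 lay within the range of the stably expanded libraries. *Cbx6* was at 37.6 CPM in de novo expanded libraries 1 and 2 and at 16.1 CPM in library 3, beside 16.3 to 25.2 CPM in pre-malignant and 11.5 to 26.6 CPM in stably expanded libraries, and its log2 fold change of de novo expanded over pre-malignant libraries went from 0.45 (limma's adjusted p = 0.638) to 0.85 when library 3 was left out. *Rybp*, the paralog of *Yaf2*, was higher in stably than in de novo expanded libraries without overlap (0.39), with limma's adjusted p = 0.891. Of all genes, 4.66% were higher there without overlap.

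**Figure D5:**
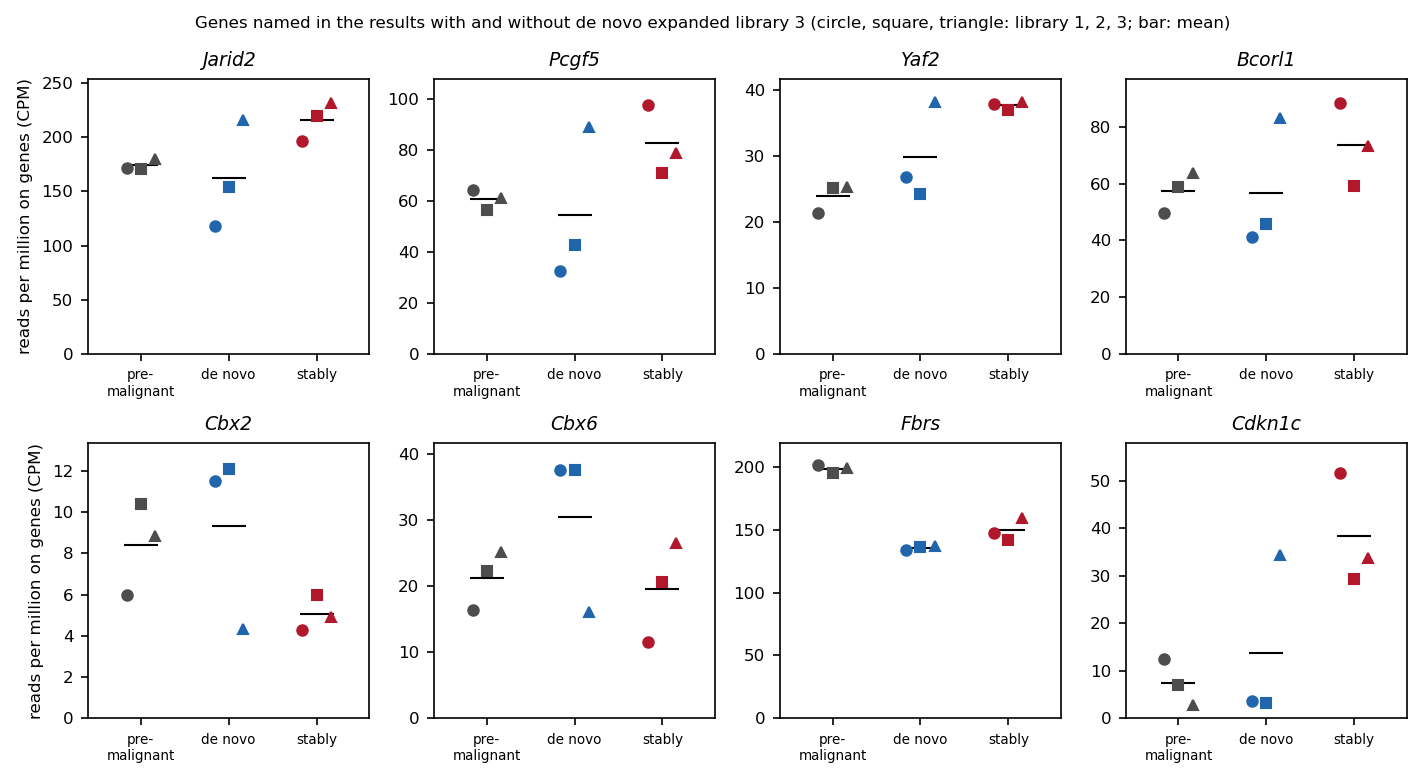
CPM of *Jarid2*, 5 selected PRC1 genes whose values differ between de novo expanded library 3 and libraries 1 and 2, *Fbrs* and *Cdkn1c* in the 9 libraries, by group; circles, squares and triangles are libraries 1, 2 and 3, bars are means (n = 3), and each vertical axis starts at 0. The triangle of the de novo expanded group lies with the stably expanded libraries for *Jarid2*, *Pcgf5*, *Yaf2*, *Bcorl1*, *Cbx2* and *Cdkn1c*, and with its own group for *Fbrs*. For *Cbx6* it lies near both pre-malignant and stably expanded libraries.

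Genes that Polycomb is known to silence were read next. Of 21 developmental regulators, such as *Gata4*, *Pax6*, *Sox1* and genes of the *Hoxd* cluster, 0 passed the filter on low values, 18 had a read in any library and the highest count of any gene in any library was 20 reads (1.50 CPM). Their summed level was 1.89 to 3.97 CPM in pre-malignant, 0.457 to 4.84 CPM in de novo expanded and 0.482 to 3.22 CPM in stably expanded libraries, and the groups overlapped. A difference in these genes was not tested, because all were below the filter, and small differences could not be seen at such counts.

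Of 4 inhibitors of cyclin-dependent kinases 3 were tested, and 1, *Cdkn1c*, was called in stably expanded over pre-malignant libraries, beside 2.75% of all genes. It was at 12.5, 6.98 and 2.90 CPM in pre-malignant, 3.67, 3.28 and 34.5 CPM in de novo expanded and 51.7, 29.3 and 33.8 CPM in stably expanded libraries. De novo expanded library 3 was again in the stably expanded range. Stably expanded over pre-malignant libraries gave a log2 fold change of 2.54 ± 0.43 (SE), with limma's adjusted p = 0.00877. Stably over de novo expanded libraries gave 2.30 (limma's adjusted p = 0.891) and, without de novo expanded library 3, 3.41. *Cdkn2a*, the locus that BMI1 is known to silence, was at 1.21, 1.10 and 0.743 CPM in pre-malignant, 0.584, 1.67 and 0.914 CPM in de novo expanded and 2.09, 4.04 and 2.50 CPM in stably expanded libraries. It was higher in every stably expanded library than in every other library, at 7 to 59 reads per library. Of all genes, 16.1% were higher in stably expanded than in pre-malignant libraries without overlap, and 4.66% higher than in de novo expanded libraries. The log2 fold change of *Cdkn2a* was 1.41 over pre-malignant (limma's adjusted p = 0.0713) and 1.45 over de novo expanded libraries (limma's adjusted p = 0.891). *Cdkn1a* overlapped between groups, and *Cdkn2b* was too low to be tested.

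The level of 16 cell cycle genes was set beside these values because several Polycomb genes are more expressed in dividing cells. Their median log2 fold change was 0.22 in both leukemic groups over pre-malignant libraries and 0.02 between the leukemic groups. Of the 16 genes, *Rrm2* passed limma's adjusted test in stably expanded libraries (0.52, adjusted p = 0.0402). The part of the cell cycle genes in the values of *Suz12* and *Rbbp7* was not tested.

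The patterns of 9 of the genes, all but *Cbx7*, whose mean was under 10 CPM, were compared over the 9 libraries by Pearson's r of log2(CPM + 1), as a description of libraries that differ in depth and group. The closest pairs were *Eed* and *Ring1* (r = 0.926), *Rbbp7* and *Bmi1* (0.832) and *Suz12* and *Rbbp7* (0.802), and the most opposed pair was *Jarid2* and *Ring1* (-0.661). Among 8556 other genes with a mean of at least 10 CPM, those most like *Ezh2* were *Dnajc7* (r = 0.953), *Spast* (0.943), *Anapc15* (0.942), *Cers2* (0.940) and *Polr1b* (0.938). Those most like *Ezh1* were *Gramd1b* (0.928), *Tcf25* (0.901), *Fuz* (0.885), *Paox* (0.883) and *Gm45867* (0.873).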

How the data were processed

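RNA-Seq was analysed in 9 libraries of 3 groups. According to the submitters' processing notes and the study's methods, reads were trimmed with Trim Galore 0.6.4, aligned with STAR 2.6.1d and counted with featureCounts 1.6.4 on GRCm38.p6 with the GENCODE annotation. The authors deposited 3 tables, 1 per pair of groups, whose values per library are a signal: read counts divided by DESeq2 size factors over 6 libraries (normalized counts). The gene length in each table is the authors' value. The tables also hold the authors' mean, log2 fold changes, standard errors, Wald statistics and p-values, which were not used. Whole reads were recovered for at least 99.9954% of nonzero values, within 0.05 reads, and CPM were computed from them. Reads on genes numbered 10379739 to 15551196 per library, and 3 reads is the limit that a count of 0 allows. Such limits cover counting error only. The 987 rows that carry a gene ID without a name were kept in the totals and the fits. How reads shared by genes and strand were treated in counting is not given in the sources used here.

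Within each table, limma 3.58.1 (R 4.3.3) with an empirical Bayes trend was fitted to log2(normalized count + 1) for the genes whose normalized counts averaged 10 or more, as a two-sided test, and p was adjusted by Benjamini-Hochberg over the whole fit. Calls needed both an adjusted p under 0.05 and a 2-fold difference. Fold changes are differences of these log2 values and understate changes of low genes. Replicates are different clones or mice (1 mouse in the pre-malignant group), and p-values measure the spread between these libraries only. On simulated data with 200 genes changed 4-fold, the fit recovered 186 of them between de novo expanded and pre-malignant, 196 between stably expanded and pre-malignant and 187 between the leukemic groups (41164, 40665 and 37490 genes, with 17, 6 and 9 false calls). Smaller changes were not simulated, so these counts do not give the recovery of changes inside 2-fold, as those of the 10 genes were. Low genes were not among those changed, and no simulated library stood apart from its group as de novo expanded library 3 did. The counts therefore do not give the recovery in the comparisons that hold that library. The ratio of *Ezh2* to *Ezh1* was compared with exact permutation tests (scipy 1.17.1, Python 3.11.15).

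The 10 genes, the lists and the rule for naming genes were chosen with earlier results of these data known. Named were all 10, list genes that were called or among the 3 with the smallest p of a comparison, and the 5 genes most like *Ezh1* and *Ezh2*. Other names were chosen after their values were seen. Promoters and motif shares are from RefSeq windows of GRCm38.p6. Alternatives were pseudocounts of 0.1 and 5, no filter or a mean of at least 50, quantile normalization, equal medians, edgeR 4.0.16 (TMM), DESeq2 1.42.0, 1 fit of 9 libraries, no fold limit, and leaving out each library. Some items are not reported here.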

Additional observations from a re-analysis of the deposited data

How the results depend on the processing

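The direction held for the 10 genes in 420 of 450 combinations of gene, comparison and alternative, and none of the 10 met the 2-fold call in any. The adjusted p alone stayed under 0.05 in 10 of 15 alternatives for *Suz12* and 8 of 15 for *Rbbp7* in stably expanded over pre-malignant libraries. Without de novo expanded library 3 it came under 0.05 for *Rbbp7* in de novo expanded over pre-malignant libraries, as for 4.35% of all genes. The log2 fold change of *Rbbp7* there was 0.49 with that library and 0.51 without it. The adjusted p of *Jarid2* came under 0.05 in stably over de novo expanded libraries, as for 6.69% of all genes. Leaving out that library, singled out for its likeness to the stably expanded libraries, favours the latter difference. In 30 combinations the direction turned, at values no further from 0 than 0.18 (log2). The cause was not tested. *Rnf2* in stably expanded over pre-malignant libraries turned to -0.0392 with quantile normalization, -0.0141 with equal medians and -0.0079 in 1 fit of 9 libraries. *Ezh1* in stably over de novo expanded libraries turned to -0.0275 with quantile normalization, -0.001 with equal medians, -0.0255 with edgeR and -0.0224 with DESeq2. Leaving out single libraries gave the following ranges where a direction turned. In de novo expanded over pre-malignant libraries they were -0.30 to 0.0642 for *Ezh1*, -0.14 to 0.0236 for *Eed*, -0.36 to 0.0875 for *Jarid2*, -0.17 to 0.0392 for *Ring1*, -0.24 to 0.0256 for *Rnf2* and -0.25 to 0.12 for *Cbx7*. In stably expanded over pre-malignant libraries they were -0.089 to 0.15 for *Rnf2* and -0.44 to 0.0004 for *Cbx7*. In stably over de novo expanded libraries they were -0.18 to 0.18 for *Ezh1*, -0.17 to 0.0025 for *Ezh2*, -0.13 to 0.0127 for *Rbbp7*, -0.23 to 0.0702 for *Bmi1*, -0.19 to 0.0193 for *Ring1*, -0.0019 to 0.29 for *Rnf2* and -0.35 to 0.0888 for *Cbx7*. The log2 ratio of *Ezh2* to *Ezh1* differed by -0.20 to 0.18 between the leukemic groups, the positive value without de novo expanded library 1.

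The count of the 10 genes called was 0 in every comparison under each alternative that kept the fold limit, and no fold limit gave 2 in stably expanded over pre-malignant libraries. Over all genes, de novo expanded over pre-malignant libraries gave 0 calls, 5 with no filter, 42 with DESeq2, 5 in 1 fit of 9 libraries and 0 to 214 leaving out single libraries. Stably expanded over pre-malignant libraries gave 384 calls, 9 in 1 fit of 9 libraries, 1110 with no fold limit and 206 to 452 leaving out single libraries. Stably over de novo expanded libraries gave 1 call, 2 with no filter, 29 with DESeq2, 2 in 1 fit of 9 libraries and 0 to 508 leaving out single libraries. The values of 214 and 508 are those without de novo expanded library 3. No scaling took the median log2 fold change of all genes further from 0 than 0.0319. No paired analysis was possible because the columns carry no clone or mouse. Depth limits *Cbx7* most, with as few as 82 reads in a library.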
